A study of Mus musculus with 6 samples.

Results

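The genes of 3 families of neuronal RNA-binding proteins, Rbfox1, Rbfox2, Rbfox3, Nova1, Nova2, Elavl1, Elavl2, Elavl3 and Elavl4, were followed through potassium chloride depolarisation of cultured mouse hippocampal neurons. The 9 genes were taken by family membership, each by the Ensembl identifier of its symbol, out of 21553 genes with values. All 9 passed the filter on low counts and were among the 15895 genes tested. RNA was sequenced from primary neurons of C57bl/6 embryos at stage E16.5, kept for 10 days in culture. Cultures received no KCl (untreated), KCl at 55 mM over 0.5 h, or KCl at 55 mM over 3 h, with 2 libraries in each of the 3 groups. The labels call the libraries biological duplicates and do not state what was duplicated, so each p-value reflects only how far these libraries differ, which may be technical. No genotype, transgene or drug other than KCl is named, and the neurons are described by region of origin and not as a purified cell type.

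Raised extracellular KCl depolarises neurons and opens voltage-gated calcium channels, and the calcium entry starts a programme of transcription and of altered splicing. Rbfox proteins bind the RNA word UGCAUG through a single RNA recognition motif and, depending on whether they sit upstream or downstream of an alternative exon, repress or promote its inclusion. Nova proteins bind clusters of YCAY (Y is a pyrimidine) through KH domains and are best known for splicing the transcripts of inhibitory and excitatory synapses. Elav-like proteins bind U-rich and AU-rich RNA in introns and in the untranslated ends of mRNAs, where they alter splicing, stability and translation. Elavl1 (HuR) is made in most cell types, whereas Elavl2 (HuB), Elavl3 (HuC) and Elavl4 (HuD) are largely neuronal.

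The reads of these paralogs can be told apart only where their sequences differ, so the coding stretch of each RNA-binding domain is shown. For the Rbfox genes it is the 75 bases around the codons of the RNP1 element, the RNA-contacting strand of the RNA recognition motif. Capitals mark the bases that differ from Rbfox1.
Rbfox1: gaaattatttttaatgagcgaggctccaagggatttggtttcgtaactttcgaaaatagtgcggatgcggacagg
Rbfox2: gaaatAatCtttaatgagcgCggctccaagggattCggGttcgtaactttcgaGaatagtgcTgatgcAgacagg
Rbfox3: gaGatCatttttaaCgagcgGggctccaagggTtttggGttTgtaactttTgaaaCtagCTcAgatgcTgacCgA
Rbfox2 differed from Rbfox1 at 8 and Rbfox3 at 15 of these 75 bases. For the Nova genes it is the 66 bases around the codons of the GKGG loop in the first KH domain, with capitals where Nova2 differs from Nova1.
Nova1: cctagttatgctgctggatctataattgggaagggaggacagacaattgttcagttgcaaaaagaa
Nova2: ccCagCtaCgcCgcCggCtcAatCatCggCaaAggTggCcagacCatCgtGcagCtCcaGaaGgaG
The Nova pair differed at 21 bases. For the Elavl genes it is the 75 bases around the RNP1 codons of the third RNA recognition motif, with capitals where a gene differs from Elavl1.
Elavl1: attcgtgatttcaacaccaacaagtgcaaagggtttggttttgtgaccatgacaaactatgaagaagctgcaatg
Elavl2: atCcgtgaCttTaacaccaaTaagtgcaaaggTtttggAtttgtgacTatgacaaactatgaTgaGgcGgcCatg
Elavl3: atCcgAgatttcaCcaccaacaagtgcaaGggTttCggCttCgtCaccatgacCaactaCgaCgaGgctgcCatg
Elavl4: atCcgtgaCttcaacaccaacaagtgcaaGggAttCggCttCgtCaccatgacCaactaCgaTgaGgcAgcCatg
Here Elavl2 differed from Elavl1 at 11 bases and Elavl3 and Elavl4 at 14 each.

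Identity over the whole aligned coding sequence was between 65.7% and 68.3% among the Rbfox genes, 68.4% between Nova1 and Nova2, and between 69.6% and 76.8% among the Elavl genes. Of the stretches of 50 bases in their transcripts (GENCODE M21), Rbfox1, Rbfox2, Rbfox3, Elavl2 and Elavl4 shared none with any other gene, and no member shared more than 2 with another member. Elavl1 shared 1.5% of its stretches, all with Ccl25, a chemokine gene on the opposite strand, and the library kit does not keep strand. Nova2 shared 30.8%, all with the antisense transcript Gm26821, Nova1 shared 3% with an overlapping gene model, and Elavl3 shared 3.13%, mostly with an overlapping gene model. Reads from such overlaps cannot be assigned with certainty, which bears most on the Nova2 values.

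The culture and the treatment were checked before the members. Library totals were between 98882007 and 141865913 counts, with the smallest in the 3 h replicate 2 library, and members had between 4440 and 67474 counts in a library. Of 10 activity genes, 4 were called higher after 0.5 h (Fos, Nr4a1, Dusp1 and Arc) and 9 after 3 h. The 0.5 h count was 10 by DESeq2, 6 with the block, 0 without untreated replicate 2, and 2 without untreated replicate 1 or without 0.5 h replicate 2, and the 3 h count was 6 without untreated replicate 2. Fos was at 7.98 and 8.14 cRPKM untreated, 236.75 and 222.75 cRPKM at 0.5 h and 344.26 and 271.36 cRPKM at 3 h. cRPKM is the authors' RPKM value, a level scaled to length and library size. The length used for each gene is not given in the sources used here. Summed over 10 pan-neuronal markers, the level was 2842 and 2732 cRPKM untreated, 2793 and 2564 cRPKM at 0.5 h, and 2447 and 1806 cRPKM at 3 h. Summed over 9 astrocyte markers, it was 1040 and 1540 cRPKM untreated, 1045 and 1677 cRPKM at 0.5 h, and 1084 and 2208 cRPKM at 3 h, so the 3 h replicate 2 library had both the lowest neuronal and the highest astrocyte sum. In the same order the sums were 421 and 556, 407 and 503, then 357 and 296 cRPKM for excitatory neurons (8 markers), and 357 and 574, 344 and 555, then 269 and 373 cRPKM for interneurons (9 markers). They were between 198 and 305 cRPKM for the oligodendrocyte lineage, 72.3 and 105 cRPKM for progenitors, 29.2 and 44.1 cRPKM for fibroblasts, 3.82 and 6.7 cRPKM for vessel cells, and 0.94 and 1.32 cRPKM for microglia. No marker was at 0 in both libraries of any group, and at 3 h against untreated only 1 fibroblast and 1 vessel marker were called, both lower. Pdgfrb is in both of these lists, so the same gene may be counted in each.

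**Figure D1:**
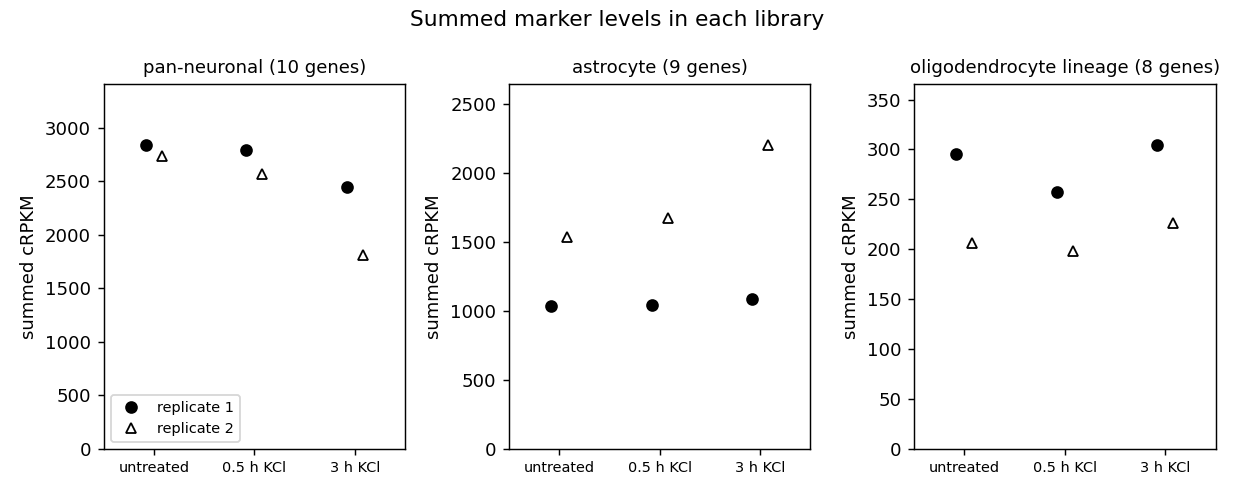
Summed level of the pan-neuronal, astrocyte and oligodendrocyte lineage markers (y axes, cRPKM, from 0) in untreated, 0.5 h and 3 h KCl libraries (x axes); circles are replicate 1 and triangles replicate 2. The replicate 2 triangles lie above the circles for astrocyte markers in all groups, and the 3 h triangle is the highest there (2208 cRPKM) and the lowest for pan-neuronal markers (1806 cRPKM).

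In untreated neurons all 9 genes were expressed, at levels that spread over more than an order of magnitude. Elavl3 was highest at 87.2 ± 4.1 cRPKM (SD, n = 2), above 95.2% of the genes tested, and Rbfox2 followed at 66.3 ± 2.7 cRPKM. Rbfox3, Elavl4, Rbfox1 and Nova2 lay together, between 23 ± 3.5 and 22 ± 0.51 cRPKM, and neighbours in that order overlapped in their libraries. Elavl2 (20.8 ± 0.77 cRPKM) came next. Its libraries lay below both Nova2 libraries but overlapped those of Rbfox1, Rbfox3 and Elavl4. Elavl1 (13.2 ± 0.59 cRPKM) followed without overlap, and Nova1 was lowest at 5.38 ± 0.52 cRPKM, above 42.3% of the genes tested. At 0.5 h the order of the means was unchanged. At 3 h Elavl1 was in place 3 by its mean of 17.7 ± 2.2 cRPKM and Elavl2 in place 8 at 14.2 ± 1.4 cRPKM, but from Elavl1 down to Elavl2 each pair of neighbours overlapped, and so did Elavl3 and Rbfox2.

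**Figure D2:**
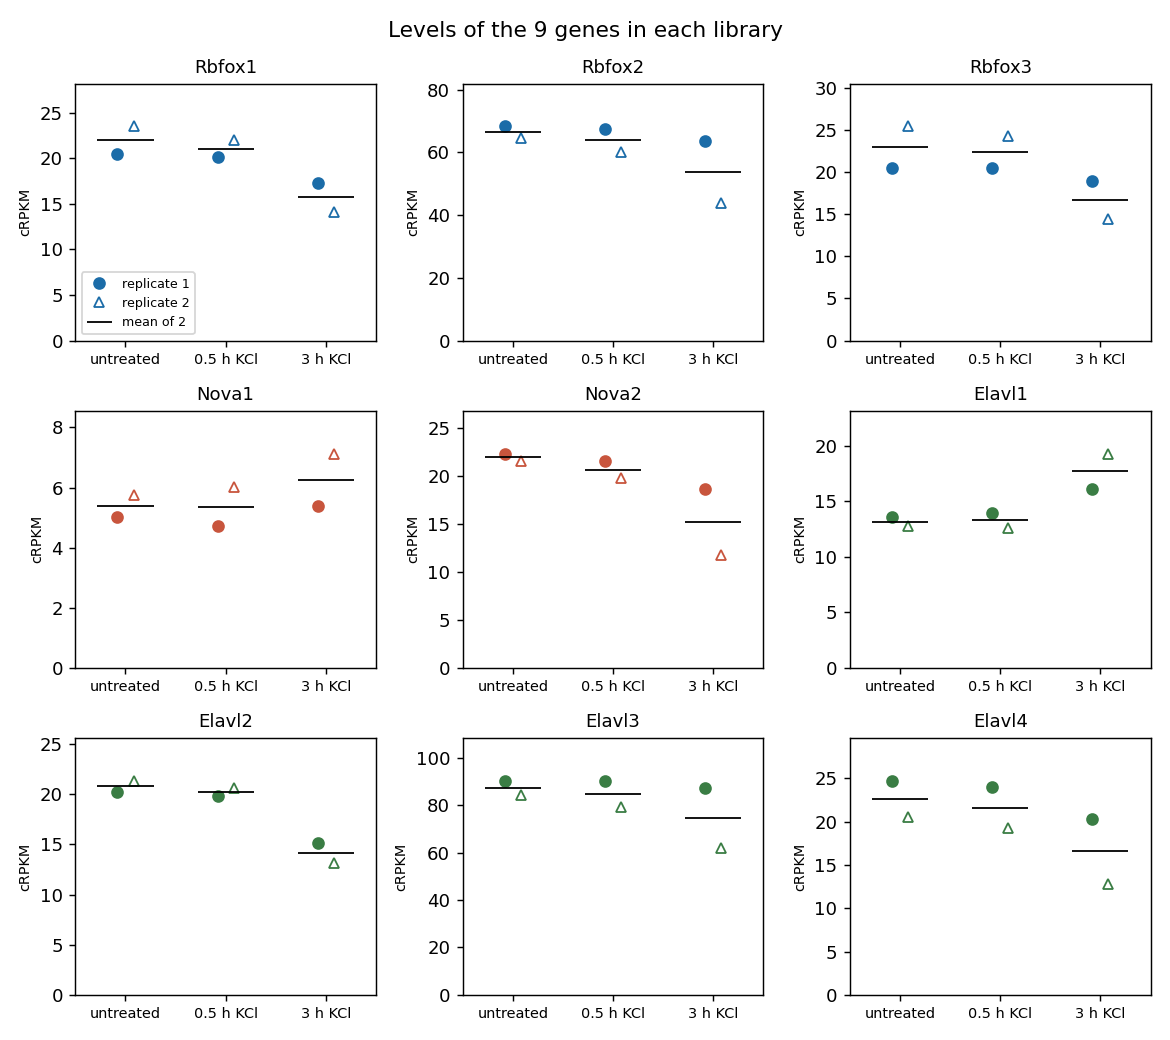
Level of each gene (y axes, cRPKM, from 0) in untreated, 0.5 h KCl and 3 h KCl libraries (x axes); circles are replicate 1, triangles replicate 2 and bars the mean of 2. At 3 h both Elavl1 libraries (16.16 and 19.31 cRPKM) lie above, and both Elavl2 libraries (15.18 and 13.18 cRPKM) below, every earlier library of the same gene.

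After 0.5 h of KCl none of the 9 genes was called. Their log2 changes against untreated neurons were between -0.11 (Nova2) and -0.01 (Elavl1), with standard errors between 0.11 and 0.27, and every adjusted p was 1 (edgeR quasi-likelihood test, Benjamini-Hochberg adjustment over all genes tested). Across all genes the same test called 0.0377% higher and 0% lower, and 0 members had an unadjusted p under 0.05, against 128 of all genes tested. DESeq2 and a fit with the replicate number as a block called no member either. The members' median log2 change was -0.06, against 0.00 over all genes tested. All 9 estimates were below 0, against 49.9% of all genes tested, and the 9 share the same libraries. With a library left out in turn, only Nova2 (-0.20 to -0.03) and Elavl2 (-0.09 to -0.04) stayed below 0 in every fit. The 95% intervals reached from -0.76 to 0.58 for Elavl4, the widest, and from -0.29 to 0.27 for Elavl1. They are not adjusted for the number of genes tested, so changes beyond these bounds could also go uncalled. All 10 activity genes had an unadjusted edgeR p under 0.05 at 0.5 h, with a median log2 change of 3.31, yet 4 were called. Arc passed narrowly, at 2.92 ± 0.22 (edgeR adjusted p = 0.043).

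After 3 h of KCl, Elavl1 rose and Elavl2 fell, and the other 7 genes did not pass the test. That is 1 of 9 members called higher, where 8.71% of all genes tested were called higher, and 1 called lower, where 6.84% were called lower. An estimate below 0 was found for 7 of the 9, against 51.9% of all genes, and the median log2 change was -0.38 for the members and -0.02 over all genes tested. At an unadjusted p under 0.05 there were 1 higher and 2 lower members, among 2835 higher and 2633 lower genes in all. With scaling by library totals, which shifts the median of all genes to -0.08, 1115 genes were called higher and 1340 lower, in place of 1384 higher and 1088 lower. In bulk RNA, fewer cells of a type and less RNA per cell cannot be told apart, which holds for each level given here.

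**Figure D3:**
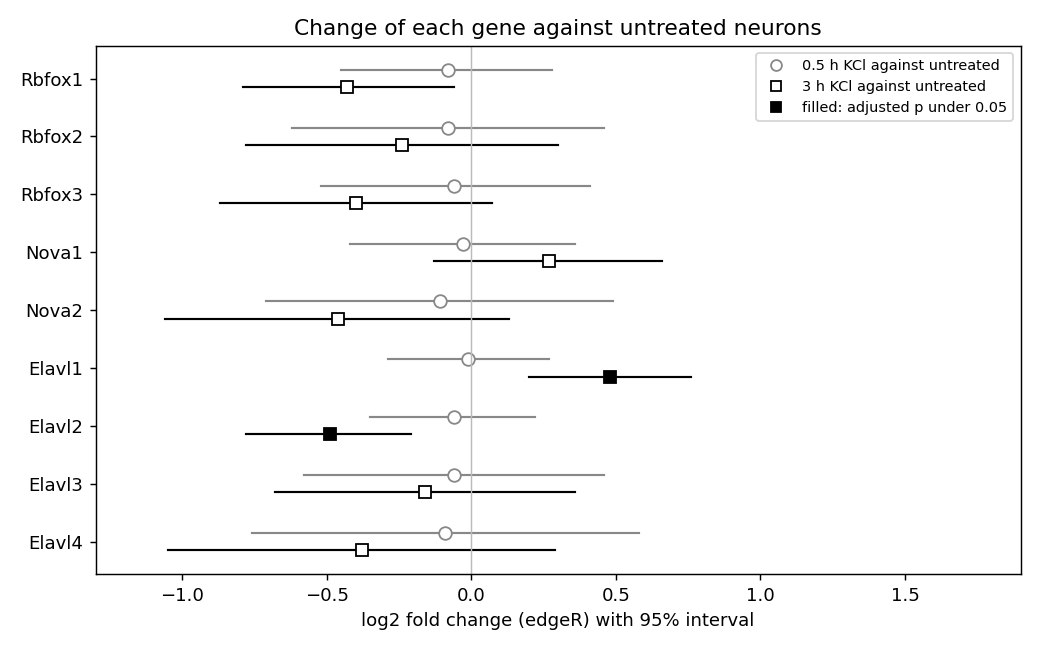
Log2 fold change of each gene against untreated neurons (x axis, edgeR) with its 95% interval (lines), for 0.5 h KCl (grey circles) and 3 h KCl (black squares); filled symbols have an adjusted p under 0.05. Only the 3 h squares of Elavl1 (0.48) and Elavl2 (-0.49) are filled, and every 0.5 h interval spans 0.

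Elavl1, the family member found in most cell types, lies on the minus strand of chromosome 8 and spans 40.0 kb. It had 13.59 and 12.75 cRPKM in untreated neurons, 13.92 and 12.64 cRPKM at 0.5 h, and 16.16 and 19.31 cRPKM at 3 h. Both 3 h libraries were above all 4 earlier ones, and the untreated and 0.5 h libraries overlapped. The level at 3 h was 1.40 times that in untreated neurons, a log2 change of 0.48 ± 0.11 (SE, 95% interval 0.20 to 0.76; adjusted p = 0.0439 by edgeR's quasi-likelihood test). The rise was as large in the 3 h against 0.5 h comparison, at 0.49 ± 0.11 (adjusted p = 0.0497), where 6.39% of all genes were called higher and 4.87% lower. The direct opposite-strand neighbour Ccl25 had 5.09 and 5.99 cRPKM in untreated neurons, 5.21 and 6.19 cRPKM at 0.5 h, and 5.99 and 7.09 cRPKM at 3 h (log2 change 0.29, adjusted p = 0.27 by edgeR), and its part in the Elavl1 counts was not tested.

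The Elavl1 call was close to the threshold and was lost in most fits with fewer libraries. On all 6 libraries the call held by DESeq2 (adjusted p = 0.00476) and with the replicate block (edgeR adjusted p = 0.023). These fits called 4157 and 5918 genes in all, against 2472 in the main fit. It held narrowly in edgeR with DESeq2 size factors (adjusted p = 0.0462) and with no low-count filter (adjusted p = 0.0444). With scaling by library totals the log2 change was 0.43 (edgeR adjusted p = 0.0648). It was 0.54 (adjusted p = 0.147) without untreated replicate 1, 0.42 (0.266) without untreated replicate 2, 0.41 (0.101) without 3 h replicate 2 and 0.50 without either 0.5 h library (0.0752 and 0.0776), all by edgeR. It held at 0.56 (adjusted p = 0.0369) without 3 h replicate 1, so its direction was the same in each. Leaving out a 0.5 h library keeps the compared libraries but alters the scaling, the filter and the shared estimate of the spread.

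Elavl2, one of the neuronal paralogs, lies on the minus strand of chromosome 4 and spans 150.0 kb. It had 20.25 and 21.34 cRPKM untreated, 19.79 and 20.61 cRPKM at 0.5 h, and 15.18 and 13.18 cRPKM at 3 h. Both 3 h libraries were below all 4 others. The replicate 2 to replicate 1 ratio of cRPKM was 1.05 untreated, 1.04 at 0.5 h and 0.87 at 3 h. The level at 3 h was 0.71 times that in untreated neurons, a log2 change of -0.49 ± 0.12 (SE, 95% interval -0.78 to -0.21; edgeR adjusted p = 0.0431). The call against untreated neurons also held with library totals (edgeR adjusted p = 0.0255). It held by DESeq2 (adjusted p = 0.00579) and with the replicate block (edgeR adjusted p = 0.0214), which called more genes in all. Against 0.5 h the log2 change was -0.43 ± 0.12 and missed the threshold (edgeR adjusted p = 0.0692). It passed there with the replicate number as a block (edgeR adjusted p = 0.0342, in a fit that called 15.6% of all genes higher and 15.6% lower), with DESeq2 (adjusted p = 0.0222) and with library totals (edgeR adjusted p = 0.0359). The fall against untreated neurons was -0.65 (edgeR adjusted p = 0.0154) without 3 h replicate 1. It was -0.34 (0.0691) without 3 h replicate 2, -0.52 (0.153) and -0.47 (0.232) without untreated replicate 1 and 2, and -0.48 (0.0936 and 0.0978) without each 0.5 h library.

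The sequence just before the start of these called genes is shown for the members that moved, from RefSeq (GRCm38.p6), 250 bases before to 50 after an annotated start. Of the 9 genes, 8 had a window in the table, with 17 windows in all, and Rbfox2 had none. The words searched on both strands were the cAMP response element TGACGTCA, its core TGACG, the AP-1 site TGANTCA, the CArG box, the Egr site GCGTGGGCG and the Rbfox word TGCATG. The single Elavl1 window (chr8:4325051-4325350, minus strand) held none of them.
Elavl1 promoter: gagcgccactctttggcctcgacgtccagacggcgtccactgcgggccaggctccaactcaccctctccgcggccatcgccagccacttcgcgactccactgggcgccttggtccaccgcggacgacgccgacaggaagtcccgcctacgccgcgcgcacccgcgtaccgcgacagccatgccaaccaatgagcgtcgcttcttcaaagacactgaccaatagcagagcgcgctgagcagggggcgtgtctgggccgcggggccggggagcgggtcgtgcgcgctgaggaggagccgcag
Of 6 overlapping or separate Elavl2 windows, the 3 at the most 3′ start held TGACG and the Rbfox word, and the first of these is shown (chr4:91372020-91372319, minus strand), chosen because it holds them. Capitals mark TGCATGCA, which reads as TGCATG on both strands and so counts as 2 overlapping matches, and CGTCA, the core on the opposite strand. This TGCATGCA lies before the annotated start, so it is outside the RNA made from that start. The Elavl2 windows without the word lie upstream of it on the minus strand. Unspliced RNA from their starts would span the word, and Rbfox binding was not tested.
Elavl2 promoter: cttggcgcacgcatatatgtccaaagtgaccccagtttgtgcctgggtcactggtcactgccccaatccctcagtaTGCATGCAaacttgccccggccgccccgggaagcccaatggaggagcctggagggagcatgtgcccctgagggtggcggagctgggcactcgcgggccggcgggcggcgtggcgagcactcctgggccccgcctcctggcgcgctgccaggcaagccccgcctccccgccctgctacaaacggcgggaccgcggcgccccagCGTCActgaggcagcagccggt
TGACG was in 6 of the 17 member windows, against 20.8% of the 32851 windows of all genes, and TGCATG in 3, against 11%. The CArG box was in 2 (both of Elavl4, windows that overlap), against 1.63%, and TGACGTCA, TGANTCA and GCGTGGGCG in 0, against 1.79%, 7.81% and 0.612%. Windows of 1 gene overlap and share matches, so these counts are descriptions, and a missing word says only that its letters are not in the window.

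Elavl3 and Elavl4, the other neuronal Elav-like genes, had lower means at 3 h without passing the test. Elavl3 had 90.06 and 84.24 cRPKM untreated, 90.34 and 79.26 cRPKM at 0.5 h, and 87.35 and 62.03 cRPKM at 3 h. The first 3 h library lay within the range of the earlier ones and the second far below it, and the log2 change against untreated was -0.16 ± 0.21 (95% interval -0.68 to 0.36; edgeR adjusted p = 0.63). Elavl4 had 24.71 and 20.49 cRPKM untreated, 23.94 and 19.26 cRPKM at 0.5 h, and 20.35 and 12.81 cRPKM at 3 h. Its 3 h replicate 1 lay just below the lower untreated library and within the 0.5 h range, and replicate 2 lay far below all the others, with a log2 change against untreated of -0.38 ± 0.27 (95% interval -1.05 to 0.29; edgeR adjusted p = 0.369). Without 3 h replicate 2 the Elavl3 estimate was 0.11 and the Elavl4 estimate -0.04, and without 3 h replicate 1 they were -0.48 and -0.81. Within each replicate number Elavl4 was lower at 3 h than untreated, and with the block its log2 change was -0.42 ± 0.13 (edgeR adjusted p = 0.054), also short of the threshold.

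Within the Elavl family the balance of Elavl1 to its neuronal paralogs was highest at 3 h in both libraries. The ratio of Elavl1 to Elavl2 was 0.671 and 0.597 untreated, 0.703 and 0.613 at 0.5 h, and 1.06 and 1.47 at 3 h. By cRPKM Elavl1 was thus below Elavl2 in all 4 earlier libraries and above it in both 3 h libraries. By share of the family's counts, which are not scaled to length, Elavl1 was already above Elavl2 in replicate 1. The shares there were 11.5% against 10.9% untreated and 11.8% against 10.7% at 0.5 h. In replicate 2 Elavl1 was below, at 11.6% against 12.3% untreated and 12.1% against 12.5% at 0.5 h. The ratio of Elavl1 to Elavl4 was 0.55 and 0.622 untreated, 0.581 and 0.656 at 0.5 h, and 0.794 and 1.51 at 3 h, and that of Elavl1 to Elavl3 was 0.151 in each untreated library, 0.154 and 0.159 at 0.5 h, and 0.185 and 0.311 at 3 h. Elavl1 made up 9.14% and 9.18% of the family's summed cRPKM untreated, 9.41% and 9.59% at 0.5 h, and 11.6% and 18% at 3 h. Elavl3 remained the main member, at a mean of 60.6% untreated, 60.6% at 0.5 h and 60.3% at 3 h. These ratios combine a called rise with called and uncalled falls and were not tested. An exact permutation test of 2 libraries against 2 cannot go below a two-sided p of 0.33.

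**Figure D4:**
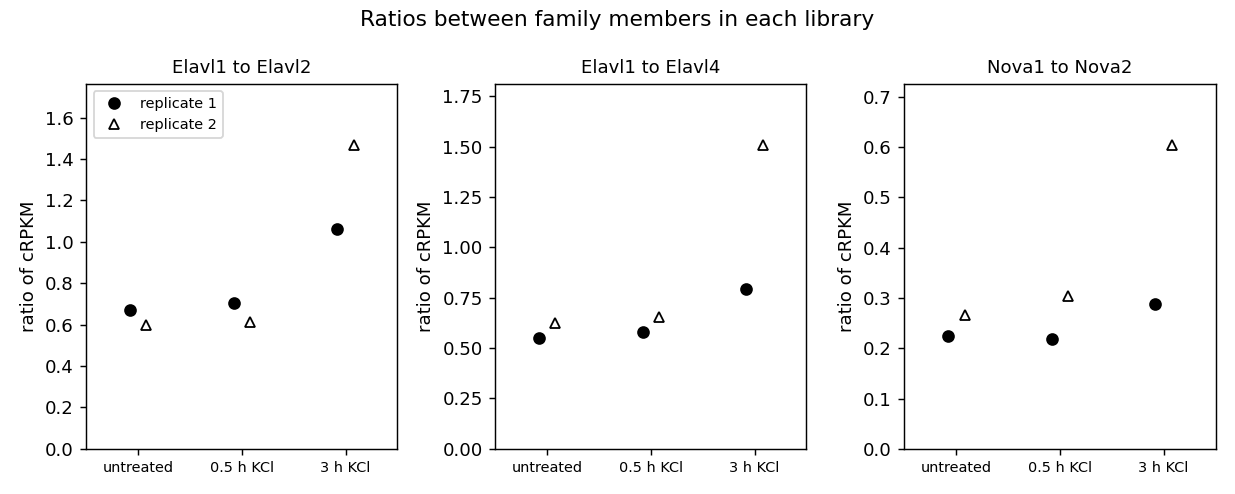
Ratio of cRPKM between family members (y axes, from 0) in untreated, 0.5 h and 3 h KCl libraries (x axes); circles are replicate 1 and triangles replicate 2. All 3 ratios are highest in the 3 h replicate 2 library, at 1.47 for Elavl1 to Elavl2, 1.51 for Elavl1 to Elavl4 and 0.605 for Nova1 to Nova2.

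No Rbfox gene passed the test at 3 h, and all 3 had lower means. Rbfox1, on the plus strand of chromosome 16 and spread over 1526.2 kb, is a splicing regulator of neurons and muscle. It had 20.48 and 23.49 cRPKM untreated, 20.18 and 21.96 cRPKM at 0.5 h, and 17.32 and 14.07 cRPKM at 3 h. Its 3 h libraries lay below all the others, and the log2 change against untreated was -0.43 ± 0.15 (95% interval -0.79 to -0.06; unadjusted p = 0.03, edgeR adjusted p = 0.108). Rbfox3 encodes the antigen NeuN, a nuclear marker of mature neurons, and lies on the minus strand of chromosome 11. It had 20.51 and 25.45 cRPKM untreated, 20.51 and 24.34 cRPKM at 0.5 h, and 18.93 and 14.48 cRPKM at 3 h. Its 3 h libraries were also below the rest, replicate 1 only slightly, and the log2 change was -0.40 ± 0.19 (95% interval -0.87 to 0.07; edgeR adjusted p = 0.2).

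Rbfox2, a family member also made outside neurons, lies on the minus strand of chromosome 15. It had 68.26 and 64.42 cRPKM untreated, 67.39 and 60.24 cRPKM at 0.5 h, and 63.68 and 43.82 cRPKM at 3 h. The 3 h libraries differed from each other by more than the groups did, and the log2 change was -0.24 ± 0.22 (95% interval -0.78 to 0.30; edgeR adjusted p = 0.48). It was the main Rbfox transcript throughout, with 62.5% and 56.8% of the family's summed cRPKM untreated, 62.4% and 56.5% at 0.5 h, and 63.7% and 60.5% at 3 h. The ratio of Rbfox1 to Rbfox2 was between 0.272 and 0.365 over the 6 libraries and that of Rbfox3 to Rbfox2 between 0.297 and 0.404. In each group both ratios were higher in replicate 2 than in replicate 1.

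The Nova genes had estimates in opposite directions at 3 h, and neither passed the test. Nova2, the more abundant Nova gene here, lies on the plus strand of chromosome 7. It had 22.33 and 21.61 cRPKM untreated, 21.58 and 19.75 cRPKM at 0.5 h, and 18.65 and 11.78 cRPKM at 3 h. Both 3 h libraries were below the rest, far apart from each other, and the log2 change was -0.46 ± 0.24 (95% interval -1.06 to 0.13; edgeR adjusted p = 0.233). Nova1, on the minus strand of chromosome 12, had 5.02 and 5.75 cRPKM untreated, 4.72 and 6.01 cRPKM at 0.5 h, and 5.37 and 7.13 cRPKM at 3 h. The groups overlapped, with replicate 2 above replicate 1 in each, and the log2 change was 0.27 ± 0.16 (95% interval -0.13 to 0.66; edgeR adjusted p = 0.291). With the replicate number as a block Nova1 passed, at 0.26 ± 0.07 (adjusted p = 0.045) against untreated and 0.29 ± 0.07 (adjusted p = 0.0377) against 0.5 h. That blocked fit called 18.6% of all genes higher and 18.6% lower at 3 h against untreated, so Nova1 was then 1 of 2 members called higher and Elavl2 the only one called lower. Nova1 made up 18.4% and 21% of the summed Nova cRPKM untreated, 17.9% and 23.3% at 0.5 h, and 22.4% and 37.7% at 3 h. The ratio of Nova1 to Nova2 was 0.225 and 0.266 untreated, 0.219 and 0.304 at 0.5 h, and 0.288 and 0.605 at 3 h.

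Much of the 3 h pattern was carried by 1 library. At 3 h the replicate 2 to replicate 1 ratio of cRPKM was 0.63 for Nova2 and Elavl4, 0.69 for Rbfox2, 0.71 for Elavl3, 0.76 for Rbfox3, 0.81 for Rbfox1 and 0.87 for Elavl2, but 1.19 for Elavl1 and 1.33 for Nova1. Elavl1 and Nova1 were thus the members that were higher in the library with the lower pan-neuronal and the higher astrocyte marker sum. Its excitatory sum was lower and its interneuron sum higher than in 3 h replicate 1. Replicate 2 also had the lower pan-neuronal and the higher astrocyte sum untreated and at 0.5 h. The replicate 2 to replicate 1 ratio there was 0.94 and 0.91 for Elavl1, and 1.15 and 1.27 for Nova1. In untreated neurons Rbfox1 (1.15), Rbfox3 (1.24), Nova1 (1.15) and Elavl2 (1.05) were higher in replicate 2, as the excitatory, interneuron and astrocyte marker sums were. Without 3 h replicate 1, a fit that called 11.9% of all genes higher and 11.2% lower, 5 members were called by edgeR, namely Elavl1 and, lower, Elavl2, Rbfox1 (-0.63, adjusted p = 0.0278), Rbfox2 (-0.59, 0.0465) and Nova2 (-0.89, 0.0183). Without 3 h replicate 2 none was called, where 6.34% of all genes were called higher and 4.35% lower, and the log2 changes were -0.23 for Rbfox1, 0.05 for Rbfox2, -0.17 for Rbfox3, 0.11 for Nova1 and -0.12 for Nova2. The 3 h group was then a single library, which the fit assumes to vary like the others. The part of the marker sums in these member values was not tested.

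**Figure D5:**
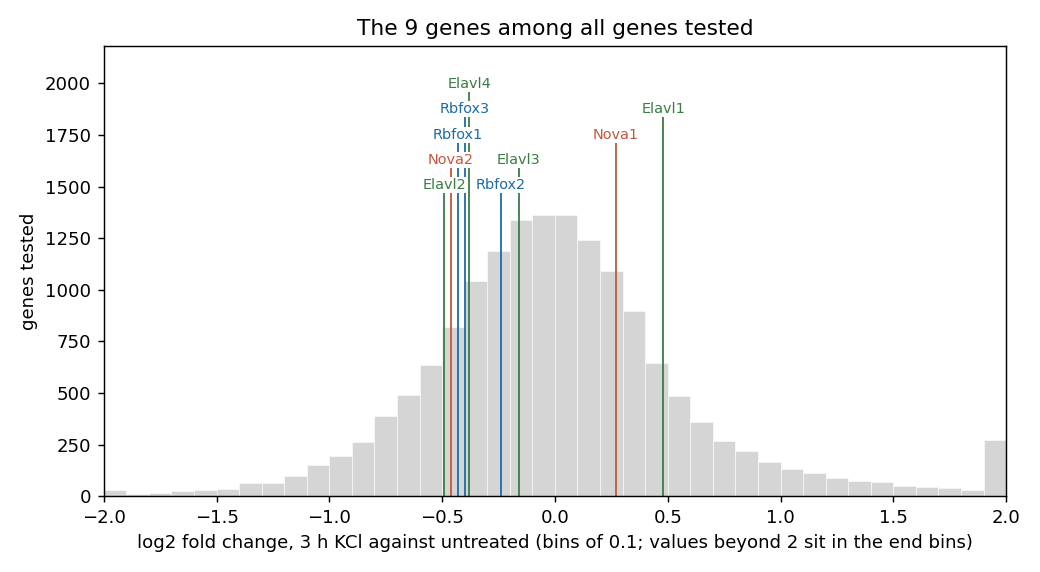
Number of genes tested (y axis) by log2 fold change at 3 h KCl against untreated (x axis, bins of 0.1, end bins holding all values beyond 2), with a labelled line at each of the 9 genes. Elavl2 (-0.49), Nova2, Rbfox1, Rbfox3 and Elavl4 (-0.38) lie close together left of the centre, and Nova1 (0.27) and Elavl1 (0.48) lie right of it.

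The genes whose course over the 6 libraries was most like that of a called member were found among 12147 other genes. Likeness was the root mean square difference in log2 CPM, each gene centred on its own mean. The nearest to Elavl1 were Wdfy1 (0.025), Ythdf2 (0.028) and Snx8 (0.028), with log2 changes at 3 h of 0.47, 0.46 and 0.53. Ythdf2 encodes a reader of methylated adenosine in RNA. The nearest to Elavl2 were Limd2 (0.016), Adam22 (0.017) and Dock9 (0.017), with log2 changes of -0.49, -0.50 and -0.50. Adam22 encodes a neuronal receptor of the secreted protein LGI1. Such distances describe these 6 libraries and were not tested.

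Several other regulators of neuronal splicing rose at 3 h. Of 20 listed (the Srrm, Ptbp, Mbnl, Celf, Khdrbs and Msi genes and Qk), none was called at 0.5 h. At 3 h 4 were called higher and 0 lower by edgeR, where 8.71% of all genes were called higher and 6.84% lower. The median log2 change of the 20 was 0.10. The 4 were Ptbp1, the repressor of neuronal exons in non-neuronal cells, Mbnl2 and Mbnl1, the muscleblind proteins, and Msi2, a Musashi protein. Ptbp1 had 54.69 and 97.95 cRPKM at 3 h, against 16.76 and 14.04 cRPKM in untreated neurons (log2 change 2.35 ± 0.26, edgeR adjusted p = 0.0087). Mbnl2 changed by 1.63 ± 0.25, Mbnl1 by 0.83 ± 0.15 and Msi2 by 0.80 ± 0.16, with edgeR adjusted p of 0.016, 0.024 and 0.029. The block called 7 higher and 3 lower, where it called 18.6% of all genes higher and 18.6% lower. DESeq2 called 5 higher and 2 lower, among 2268 higher and 1889 lower genes in all. Msi2 held in 1 of the 6 fits that left out a library, and the other 3 in 4 of them.

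Of 8 partners of the nuclear assembly that Rbfox proteins form with hnRNP M, 2 were called higher at 3 h and 0 lower. Over all genes tested 8.71% were called higher and 6.84% lower. The median log2 change was 0.23 for the 8 partners and -0.02 over all genes tested. Hnrnpm itself had 59.65 and 62.93 cRPKM at 3 h, against 46.61 and 40.64 cRPKM in untreated neurons (log2 change 0.54 ± 0.11, edgeR adjusted p = 0.033). Hnrnph1 had 114.09 and 121.55 cRPKM at 3 h, against 90.69 and 76.93 cRPKM in untreated neurons (0.54 ± 0.13, edgeR adjusted p = 0.043). Neither call held when any 1 of the 6 libraries was left out. The block and DESeq2 each called 4 of the 8 higher. In all, the block called 18.6% of genes higher, and DESeq2 called 2268 genes higher.

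Gene-level values of transcripts that these proteins bind were given as a description, since they say nothing of how the exons were spliced. Of 10 transcripts reported as Rbfox splicing targets, 0 were called at 3 h by edgeR (3 had an unadjusted p under 0.05; the block called 1 higher and 1 lower, and DESeq2 1 lower), with a median log2 change of -0.24. Of 10 reported as Nova splicing targets, 0 were called higher and 1 lower by edgeR, and the median was -0.37. Over all genes tested edgeR called 8.71% higher and 6.84% lower, and the block called 18.6% each way. No Nova target was called with DESeq2 size factors or with no filter on low counts, while the block called 4 of the 10 lower and DESeq2 3. Without 3 h replicate 1, 4 of the Rbfox targets and 5 of the Nova targets were called lower, in a fit that called 11.2% of all genes lower, and without 3 h replicate 2, 0 of either list were called.

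Of 15 transcripts reported as bound by Elav-like proteins, 7 were called higher at 3 h and 0 lower by edgeR, and the median log2 change was 0.01, beside 8.71% called higher and 6.84% lower over all genes. The count was 2 without untreated replicate 1 and 2 without untreated replicate 2. The 7 were Fos, Ptgs2, Bdnf, Myc, Slc2a1, Ccnd1 and Cdkn1a, of which Fos is also among the 10 activity genes. Ptgs2, the inducible cyclooxygenase, had 3.14 and 4.22 cRPKM at 3 h, against 0.09 and 0.21 cRPKM in untreated neurons (log2 change 4.70 ± 0.48, edgeR adjusted p = 0.0075). Bdnf, a neurotrophin induced by activity, had 55.49 and 42.43 cRPKM at 3 h, against 7 and 11.73 cRPKM in untreated neurons (2.45 ± 0.34, adjusted p = 0.013 by edgeR). Ccnd1, the G1 cyclin D1, had 32.66 and 33.67 cRPKM at 3 h, against 18.40 and 20.33 cRPKM in untreated neurons (0.83 ± 0.12, adjusted p = 0.013 by edgeR). At 0.5 h Fos alone was called among the 15, and it was not called without untreated replicate 1 or without untreated replicate 2.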

How the data were processed

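RNA from 6 libraries (TruSeq RNA v2, total RNA by TriReagent, per the labels' protocols) was measured per gene. Each deposited file gives, for 22667 Ensembl genes, the authors' RPKM value, named cRPKM by the authors, and a whole-number read count; 1114 genes held no value. Bowtie and build mm9 stand in the submitters' processing notes; versions, annotation, length correction and the treatment of multi-mapping reads are, in the sources used here, not given. The deposited counts divided by the deposited cRPKM gave a constant ratio per gene and library to within 0.132% at the 99th percentile of 7690 genes over 2000 counts, so both hold the same reads.

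Counts were tested with edgeR 4.0.16 (R 4.3.3): low counts were removed by filterByExpr at 10 counts (15895 genes with 99.995% of counts), libraries were scaled by TMM, and the model was a quasi-likelihood fit with group as the only term over all 6 libraries (residual df 3, median prior df 2.75, common biological coefficient of variation 19.2%), and Benjamini-Hochberg adjustment over all genes tested. A gene was called at an adjusted p under 0.05. Standard errors are the log2 change over the root of F. Levels are cRPKM, whose precision is limited by 2 libraries a group rather than by depth, since every member had at least 4440 counts in each library. The code was tested on simulated data. Alternatives were scaling by library totals, DESeq2 size factors, no low-count filter, DESeq2 1.42.0, leaving out each library, a replicate block, and family shares of counts in place of cRPKM.

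The labels number the replicates without saying what a number shares. Deviations of same-numbered libraries correlated at 0.805 (untreated and 0.5 h), 0.577 (untreated and 3 h) and 0.613 (0.5 h and 3 h) over 15895 genes. The fit with the block is therefore printed where it changes a call.

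Members were found by symbol through the gene name table (20451 genes named). The members, gene lists and markers were chosen with earlier results of these data known. Named beyond the members are up to 4 called genes of each list with the smallest adjusted p per comparison with untreated neurons, the 3 genes nearest to each called member with a mean of at least 1 cRPKM (log2 CPM, prior count 2), and genes overlapping a member; a called gene of the Nova target list is not reported here. The remaining called genes of the Elav-bound list were named after their values were seen. Coding sequences and spans came from GENCODE M21, promoters from RefSeq GRCm38.p6. No coordinates were converted from mm9. Protein sequences were not used here.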

Additional observations from a re-analysis of the deposited data

Results flagged for a closer look

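Elavl1 differed between the 2 KCl times. The test of 3 h against 0.5 h gave a log2 change of 0.49 ± 0.11 (SE; edgeR adjusted p = 0.0497), which is also the test of whether its change against untreated neurons differed between the times, since both share the untreated libraries. The level was 16.16 and 19.31 cRPKM at 3 h, against 13.92 and 12.64 cRPKM at 0.5 h, higher in 2 of 2 libraries. The adjusted p was 0.0253 with the replicate block and 0.0045 by DESeq2, but 0.052 with DESeq2 size factors in edgeR and 0.0776 with library totals. With 1 library left out in turn it was between 0.0421 (without 3 h replicate 1) and 0.269 (without 0.5 h replicate 2), and only the fit without 3 h replicate 1 passed. No group had enough libraries for a test of outlying samples.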

How the results depend on the processing

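At 3 h against untreated neurons 2 members and 2472 genes were called. Library totals left 1 member (Elavl2); they shift the median of all genes to -0.08 and turn the split of called genes from 1384 higher and 1088 lower into 1115 higher and 1340 lower. DESeq2 called 4157 genes and the replicate block 5918, and leaving out 1 library gave between 0 and 5 members and between 38 and 3739 genes. At 3 h against 0.5 h 1 member was called; library totals gave 1 (Elavl2 in place of Elavl1), DESeq2 size factors 0, DESeq2 2, the block 3 and leaving out a library between 0 and 4. Of genes, 1789 were called there, DESeq2 called 3548 and the block 4961, leaving out a library gave between 0 and 2915, and library totals (median -0.10) gave 762 higher and 1037 lower in place of 1015 higher and 774 lower. At 0.5 h 6 genes were called, 13 with no low-count filter, 37 by DESeq2, 13 with the block and between 0 and 6 with a library left out; no member was called under any of these.

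Every direction that turned belonged to an estimate that did not pass with all 6 libraries. Elavl1 at 0.5 h was 0.01 with library totals. With a library left out, the 0.5 h log2 changes ranged from -0.17 to 0.01 (Rbfox1), -0.18 to 0.02 (Rbfox2), -0.20 to 0.09 (Rbfox3), -0.19 to 0.12 (Nova1), -0.10 to 0.08 (Elavl1), -0.18 to 0.05 (Elavl3) and -0.28 to 0.08 (Elavl4). Those at 3 h against untreated ranged from -0.59 to 0.05 (Rbfox2) and -0.48 to 0.11 (Elavl3), and those at 3 h against 0.5 h from -0.51 to 0.13 (Rbfox2), -0.42 to 0.18 (Elavl3) and -0.72 to 0.05 (Elavl4). The block changed no other call of a member than those of Nova1 and, against 0.5 h, Elavl2. As shares of summed counts, which favour long transcripts, Rbfox2 held 74.3%, 74.2% and 76.3% of its family over untreated, 0.5 h and 3 h (59.7%, 59.4% and 62.1% by cRPKM), Nova1 16.3% untreated (19.7%), Elavl1 11.6% and 12% untreated and at 0.5 h (9.16% and 9.5%), and Elavl3 63.3% and 63.1% (60.6% in each). Scaling by library totals cannot move the distances between genes, since a library's factor is common to both. With 2 libraries a group, where 1 was left out the lone library was assumed to vary like the others, and the cause of these differences was not tested.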
